A study of Mus musculus with 35 samples.

Results

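Acod1 (aconitate decarboxylase 1, formerly Irg1; ENSMUSG00000022126.6) is the gene of the enzyme that makes itaconate, and it was followed here as 1 gene of the 53379 in the count table. It was chosen on its change after treatment in splenic monocytic myeloid-derived suppressor cells (M-MDSC), so its values in that comparison are given as a description, with no test. Acod1 itself is tested only between groups that this choice did not use.

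Bulk RNA sequencing was performed on cells sorted from 8 C57BL6 mice, each of which carried an orthotopic pancreatic tumor grown from T110299, a line derived from 1 genetically engineered mouse (Ptf1a-Cre and LSL-Trp53 fl/R172H among its alleles). Treated mice received 50 µg of poly(I:C), a double-stranded RNA mimic, complexed with the carrier PEI (poly(I:C)c) intravenously on day 18 and day 20 after tumor induction, and the control mice are labelled untreated (the methods name glucose as the control treatment in general). CD11b+ cells were enriched on magnetic columns and sorted as PMN-MDSC (polymorphonuclear, Ly6C low and Ly6G+) or M-MDSC (Ly6C high and Ly6G-) from spleen and tumor, which gave 8 MDSC groups, and 4 bulk tumors of untreated mice were lysed directly. All groups therefore came from tumor-bearing wild-type hosts, and no group came from tumor-free mice. Groups held 4 libraries each, except treated splenic PMN-MDSC and treated tumor M-MDSC with 3 each.

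Acod1 converts cis-aconitate, an intermediate of the tricarboxylic acid cycle, into itaconate inside mitochondria. Myeloid cells switch the gene on after stimulation of Toll-like receptors or by interferons, and itaconate is known to inhibit succinate dehydrogenase, to modify the Nrf2 inhibitor Keap1 and to act on bacteria. In tumors, the gene is known from macrophages, neutrophils and MDSC.

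The gene lies on chromosome 14 of GRCm38 from 103046977 to 103056573 on the plus strand and spans 9597 nt. Its single annotated transcript has 5 exons with 2623 nt in all, of which exon 5 (103054512 to 103056573) holds 2062 nt. The nearest protein-coding gene upstream, Kctd12 on the minus strand at a distance of 64.34 kb, does not overlap it.

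The 215 bases of promoter before the annotated start of the transcript are shown because the transcription factors among the inducers of Acod1 listed further on bind such sequence. The sequence comes from RefSeq on GRCm38.p6 (chr14:103046762-103046976, plus strand), and capitals mark the matches to the 4-base core GAAA that interferon regulatory factors prefer, on either strand, and to GGAANTTCC, a pair of half-sites of the Rel type.
Acod1 promoter: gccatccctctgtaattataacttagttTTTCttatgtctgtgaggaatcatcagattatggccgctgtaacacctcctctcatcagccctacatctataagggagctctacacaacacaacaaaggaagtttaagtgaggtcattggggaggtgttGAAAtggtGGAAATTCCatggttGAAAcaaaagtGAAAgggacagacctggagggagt

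GAAA occurred 5 times, at 187 bases before the start on the minus strand and at 58, 49, 35 and 24 bases before it on the plus strand, and was present in 83.6% of 32851 promoter windows of the same length from 27025 genes. GGAANTTCC occurred once, as GGAAATTCC 50 bases before the start, where it overlaps the GAAA at 49, and was present in 0.648% of windows. AGGAAGT, the core of ETS factors with a flank, occurred once, at 91 bases before the start (6.33% of windows). Both strands were searched, and the letters of the motifs were chosen after the window had been read. The RefSeq start of Acod1 lies 35 nt downstream of the annotated start used here. Windows of the other genes were cut alike, so the last 35 bases before their RefSeq starts were not searched. The doubled GAAANNGAAA of an interferon-stimulated response element (2.58% of windows), TTCNNNGAA (6.14%), the NF-kB consensus (3.36%), TATAAA (9.75%), TTGCNNAA (8.6%) and TGANTCA (5.97%) were not found in this window.

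The 34 libraries used held 793070 to 4357105 counts in MDSC and 3771590 to 8886115 in bulk tumor, and 1 library of tumor M-MDSC from treated mice with 10 counts was left out. The sorted labels were compared with marker genes. Splenic PMN-MDSC had summed levels of 13 neutrophil markers of 24581 to 43383 CPM (count relative to all counts of its library, per 1e6) in untreated and 35176 to 77543 CPM in treated mice. Libraries labelled PMN-MDSC from tumor reached 1515 to 5266 and 4726 to 11418 CPM, and Ly6g, the antigen of the sort, was at 0 to 9.19 CPM in the untreated ones against 34.5 to 84.7 CPM in untreated spleen. In the same tumor libraries 10 macrophage markers summed to 10245 to 13791 CPM untreated and 7890 to 19453 CPM treated, above splenic PMN-MDSC (575 to 1816 and 134 to 229 CPM). Tumor M-MDSC had neutrophil sums of 258 to 900 and 255 to 1241 CPM and macrophage sums of 3687 to 8665 and 5553 to 29714 CPM. The name tumor PMN-MDSC is kept below as the label of these libraries, whose markers go against it in part.

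Acod1 levels ranged from 0.397 CPM in a bulk tumor to 2233 CPM in PMN-MDSC from a treated tumor. In splenic M-MDSC it was at 1.58, 2.79, 1.66 and 1.90 CPM in the 4 untreated mice (3, 6, 4 and 8 counts) and at 260, 520, 545 and 360 CPM in the 4 treated mice. In tumor M-MDSC it was at 92.9, 77.5, 54.6 and 36.6 CPM untreated and at 280, 85.6 and 1220.0 CPM treated. The splenic groups did not overlap, while 1 of the 3 treated tumor libraries lay inside the untreated range.

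In splenic PMN-MDSC, Acod1 was at 11.1, 45.3, 14.9 and 48.8 CPM untreated and at 94.1, 268 and 259 CPM treated. In PMN-MDSC from tumor it was at 274, 697, 601 and 545 CPM untreated and at 467, 612, 955 and 2233 CPM treated. All treated splenic libraries were above all untreated ones, whereas the tumor groups overlapped. Bulk tumor had 0.397, 2.12, 3.60 and 1.60 CPM, from 3, 8, 32 and 14 counts.

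**Figure D1:**
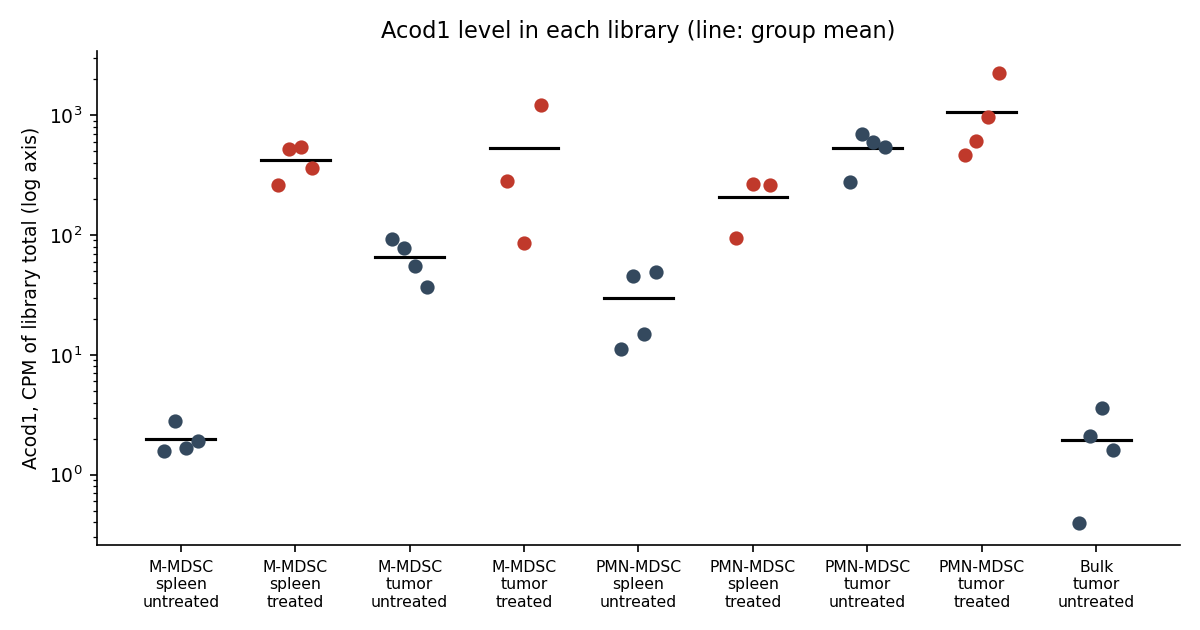
Acod1 level in CPM of the library total (log axis) in each library of the 8 MDSC groups and bulk tumor, with a line at each group mean and treated groups in red. Untreated splenic M-MDSC and bulk tumor sit at means of 1.98 and 1.93 CPM, and all 8 PMN-MDSC libraries from tumor sit at 274 CPM or more.

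Ordered by mean, Acod1 was highest in treated tumor PMN-MDSC (1067 ± 804 CPM, SD, n = 4), followed by untreated tumor PMN-MDSC (529 ± 181, n = 4), treated tumor M-MDSC (528 ± 607, n = 3), treated splenic M-MDSC (421 ± 135, n = 4) and treated splenic PMN-MDSC (207 ± 97.7, n = 3). Lower means were found in untreated tumor M-MDSC (65.4 ± 24.8, n = 4), untreated splenic PMN-MDSC (30.04 ± 19.8, n = 4), untreated splenic M-MDSC (1.98 ± 0.554, n = 4) and bulk tumor (1.93 ± 1.33, n = 4). Of the 8 pairs of neighbours in this order only 2 did not overlap: treated splenic PMN-MDSC against untreated tumor M-MDSC, where the lowest library of the former was at 94.1 CPM and the highest of the latter at 92.9 CPM, and untreated splenic PMN-MDSC against untreated splenic M-MDSC (11.1 against 2.79 CPM). The replicate spread differed between groups, with a coefficient of variation of 27.9% in untreated splenic M-MDSC and 115% in treated tumor M-MDSC, whose highest library was 14.3 times its lowest. At the depth of untreated splenic M-MDSC, 3 counts correspond to 0.714 to 1.58 CPM, so that these 4 libraries were at or just above this floor. Floors cover counting error only, since the libraries were amplified by PCR without molecular identifiers, whereas the 95% intervals of fitted differences below come from the spread between libraries.

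Per length, in FPKM (CPM divided by kilobases of exon), Acod1 ranked 9927 of 21865 protein-coding genes in untreated splenic M-MDSC (0.756 FPKM) and 191 in treated ones (161 ± 51.5 FPKM, SD, n = 4). In tumor PMN-MDSC it already ranked 139 without treatment (202 ± 69.1 FPKM, n = 4) and 57 with treatment (407 ± 306 FPKM, n = 4). It ranked 1481 and 137 in untreated and treated tumor M-MDSC, 2978 and 462 in splenic PMN-MDSC, and 11098 in bulk tumor (0.736 FPKM).

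In sorted cells of mixed make-up, fewer Acod1-positive cells and less Acod1 RNA per cell cannot be told apart. The labels number the mice, but the columns of the table carry no mouse number but a running number, so libraries of 1 mouse were not paired, and p-values measure the spread between libraries. Comparisons between organs or cell types thus treat libraries from the same mice as independent.

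The effect of treatment on Acod1 was first examined in splenic PMN-MDSC. Acod1 rose here, from 30.04 to 207 CPM, by 8.46-fold (95% interval 3.26 to 22.01; log2 fold change 3.08, SE 0.605, 3 treated against 4 untreated libraries). The edgeR quasi-likelihood test gave an adjusted p of 0.0171 over 7261 genes. Of all genes tested in this comparison, 6.1% rose and 5.52% fell at an adjusted p under 0.05, and 6.25% had all treated libraries above all untreated ones. The lowest treated library was 1.93 times the highest untreated one. The call was lost without treated replicate 3 (259 CPM; log2 fold change 2.90, adjusted p = 0.0637) and with edgeR at an adjusted p under 0.001, which with at least 2-fold 3 of the 7261 genes passed (0.0413%). DESeq2, the tool to which the study applied that cutoff, gave an adjusted p of 6.73e-06.

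Marker levels moved with treatment in the same splenic PMN-MDSC libraries. Macrophage markers summed to 575 to 1816 CPM untreated and 134 to 229 CPM treated, 8 dendritic cell markers to 258 to 419 and 8.64 to 60.9 CPM, and 6 erythroid markers to 59.6 to 178 and 0.360 to 4.48 CPM. The sums of B cell markers (35.4 to 79.3 and 9.61 to 32.7 CPM), T and NK cell markers (11.2 to 17.3 and 2.52 to 4.83 CPM) and tumor epithelium markers (16.3 to 33.4 and 2.52 to 9.28 CPM) were also lower in treated mice without overlap. Neutrophil markers were at 24581 to 43383 and 35176 to 77543 CPM, and Ly6g rose from 55.2 to 284 CPM. S100a8, Mmp8, Mmp9 and Retnlg also rose, while S100a9, Cxcr2, Camp, Ltf and Ngp did not pass. Csf3r had means of 6575 CPM untreated and 3011 CPM treated (edgeR adjusted p = 0.229). The treated library with the lowest Acod1 level, 94.1 CPM, had the highest neutrophil sum, 77543 CPM. The part of these differences in the Acod1 change was not tested.

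In tumor M-MDSC, the mean of Acod1 was 65.4 CPM untreated and 528 CPM treated, a fitted difference of 7.52-fold (95% interval 2.24 to 25.2; log2 fold change 2.91, SE 0.767, 3 against 4 libraries). With edgeR this did not pass the threshold over 8360 genes (adjusted p = 0.0768). Of the genes tested, 1.82% rose and 1.06% fell, and 12.8% did not overlap with the treated libraries higher, which Acod1 did not do. The call depended on the tool and on 1 library: DESeq2 gave an adjusted p of 7.47e-04, an edgeR fit over all 8 MDSC groups 0.0061, and the edgeR fit without treated replicate 2 (85.6 CPM) 0.0152. Without treated replicate 3 (1220.0 CPM) the log2 fold change was 1.38 with an adjusted p of 0.235. The fit over all 8 MDSC groups takes part of its spread from the splenic M-MDSC libraries that chose the gene. Its p is therefore not free of that choice.

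The 3 treated tumor M-MDSC libraries differed in their markers. The library with 85.6 CPM of Acod1 had the highest macrophage sum, 29714 CPM, and the lowest neutrophil sum, 255 CPM. The libraries with 280 and 1220.0 CPM had macrophage sums of 5553 and 11675 CPM and neutrophil sums of 1241 and 632 CPM. Irf7, an interferon-induced transcription factor, was at 1142, 700 and 1058 CPM in the libraries with 280, 85.6 and 1220.0 CPM of Acod1, so it was high in all of them. Between untreated and treated tumor M-MDSC, 2 marker sums did not overlap: dendritic cell markers at 101 to 131 and 155 to 638 CPM, most of which was Itgax (means of 94.1 and 333 CPM), and fibroblast and endothelium markers at 21.4 to 74.8 and 123 to 208 CPM. The macrophage sums overlapped, but C1qa alone was at 125 to 334 CPM untreated and 380 to 2192 CPM treated. Whether cell make-up has a part in the spread of Acod1 or in its difference was not tested.

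In tumor PMN-MDSC, where Acod1 was already high without treatment, the fitted difference was 2.07-fold (95% interval 0.919 to 4.67; log2 fold change 1.05, SE 0.526, 4 against 4 libraries). It did not pass the test (edgeR adjusted p = 0.332 over 8308 genes). In this comparison 2.29% of genes rose and 1.07% fell, and 7.64% had all treated libraries above the untreated ones. The log2 fold change was 0.28 without treated replicate 4, the library with 2233 CPM. That library had the highest neutrophil sum (11418 CPM), the highest Ly6g level (76.2 CPM) and the lowest macrophage sum (7890 CPM) of its group.

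For splenic M-MDSC, the comparison on which the gene was chosen, the fitted fold was 221 (95% interval 129 to 380; log2 fold change 7.79) and ranked 3 among 8827 genes. Of these genes 10.7% rose, 8.96% fell and 10.4% did not overlap with the treated libraries higher, and nothing is read from Acod1 against these shares. The neutrophil sum was 6501 and 5801 CPM in the treated libraries with 260 and 360 CPM of Acod1 and 1515 and 1070 CPM in those with 520 and 545 CPM. In the untreated libraries it was 4179 to 10496 CPM, so that it did not separate untreated from treated mice. Other marker sums did. In untreated and treated splenic M-MDSC, macrophage markers summed to 1043 to 1335 and 566 to 910 CPM, erythroid markers to 28.3 to 60.5 and 1.01 to 3.20 CPM, and 8 fibroblast and endothelium markers to 29.3 to 39.7 and 135 to 299 CPM. Single genes carried most of the first and the last of these differences. Of the macrophage markers, Apoe had means of 696 and 161 CPM and Mrc1 of 66.1 and 7.90 CPM, while C1qa (13.4 and 29.2 CPM), C1qb (22.6 and 60.6 CPM), C1qc (17.6 and 40.01 CPM) and Spic (32.3 and 64.5 CPM) were higher in treated mice. Of the fibroblast and endothelium markers, Kdr had means of 3.75 and 153 CPM, Pecam1 of 24.9 and 30.9 CPM, and the other 6 of at most 5.001 CPM. The part of these markers in the Acod1 difference was not tested.

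**Figure D2:**
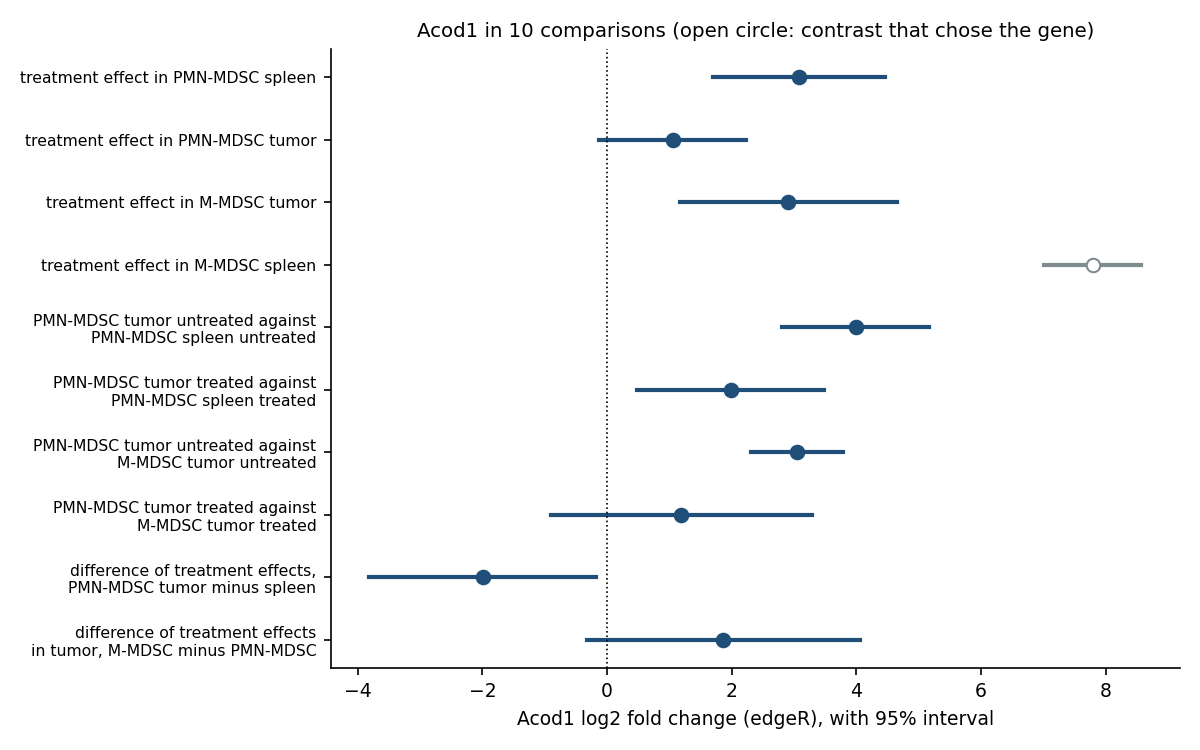
Log2 fold change of Acod1 from edgeR (points) with 95% intervals (lines) in 10 comparisons, and a dotted line at no difference; the open circle is the splenic M-MDSC comparison that chose the gene and has no test. The intervals of 3 comparisons include 0: treatment in tumor PMN-MDSC, treated tumor PMN-MDSC against treated tumor M-MDSC, and the difference of treatment effects between the tumor cell types.

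Whether the treatment effects differed was tested directly by interaction terms. In PMN-MDSC, the log2 treatment effect in tumor minus that in spleen was -2.0 (95% interval -3.81 to -0.18, SE 0.853), and with edgeR the unadjusted p was 0.033 and the adjusted p 0.25, where 3.5% of 8047 genes passed. Without tumor treated replicate 4 it was -2.76 (adjusted p = 0.0529). In tumor, the effect in M-MDSC minus that in PMN-MDSC was 1.87 (95% interval -0.32 to 4.05, SE 1.02, edgeR adjusted p = 0.651), and 2 of 8385 genes passed (0.0239%). Without treated tumor M-MDSC replicate 3 this difference was 0.33, and without treated tumor PMN-MDSC replicate 4 it was 2.60. Neither difference passed the test, and the intervals leave room for differences of several-fold. The compartments were not tested against each other for M-MDSC, because the splenic groups chose the gene; the fitted folds there were 221 in spleen and 7.52 in tumor.

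Next, Acod1 was compared between compartments. In untreated mice it was 15.9-fold higher in PMN-MDSC from tumor than in those from spleen (529 ± 181 against 30.04 ± 19.8 CPM, n = 4 each; log2 fold change 3.99, SE 0.534, 95% interval 2.81 to 5.17, edgeR adjusted p = 1.39e-04), in a comparison in which 59.1% of 7971 genes passed the test. In treated mice the difference was 3.96-fold (1067 ± 804 against 207 ± 97.7 CPM, n = 4 and 3; log2 fold change 1.98, SE 0.659, 95% interval 0.49 to 3.48, edgeR adjusted p = 0.0313), and 53.6% of 8031 genes passed. The second call was lost without splenic treated replicate 1, 2 or 3 (adjusted p = 0.0799, 0.0553 and 0.0723) and without tumor treated replicate 3 (adjusted p = 0.0514). Without tumor treated replicate 4 the log2 fold change was 1.27. In untreated mice the macrophage sum was at least 10245 CPM in PMN-MDSC from tumor and at most 1816 CPM in those from spleen, and the neutrophil sum at most 5266 CPM and at least 24581 CPM. Tumor epithelium markers summed to 126 to 765 and 16.3 to 33.4 CPM. Most of the splenic sum was Krt7 (mean of 20.3 CPM, against 1.91 CPM in tumor), and Krt8 had means of 124 CPM in tumor and 0 in spleen. In treated mice the macrophage, neutrophil and tumor epithelium sums did not overlap either. The part of this in the Acod1 difference was not tested.

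For M-MDSC the values are given side by side, since the splenic groups chose the gene. Untreated tumor M-MDSC had 33.0 times the mean of untreated splenic M-MDSC (65.4 against 1.98 CPM), without overlap. After treatment the means were 528 CPM in tumor and 421 CPM in spleen, a ratio of 1.25, and the libraries overlapped.

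Between the cell types in tumor, Acod1 was 8.27-fold higher in untreated PMN-MDSC than in untreated M-MDSC (log2 fold change 3.05, SE 0.337, 95% interval 2.31 to 3.79, n = 4 each, edgeR adjusted p = 2.63e-04), and 13% of 7623 genes passed. The lowest PMN-MDSC library, at 274 CPM, was above the highest M-MDSC library, at 92.9 CPM. In the same libraries the macrophage sum was 10245 to 13791 CPM in PMN-MDSC and 3687 to 8665 CPM in M-MDSC, the neutrophil sum 1515 to 5266 and 258 to 900 CPM, and the sum of 8 monocyte markers 1916 to 2540 and 4146 to 4736 CPM. The dendritic cell, T and NK cell, and fibroblast and endothelium sums were higher in PMN-MDSC without overlap as well. Their largest members were Itgax (means of 341 CPM in PMN-MDSC and 94.1 CPM in M-MDSC), Cd4 (21.5 and 8.29 CPM) and Pecam1 (49.5 and 29.7 CPM). The other dendritic cell and T and NK cell markers had means of at most 12.402 CPM and differed in direction. The part of these markers in the Acod1 difference was not tested. In treated mice the difference was 2.29-fold (log2 fold change 1.19, 95% interval -0.89 to 3.28, edgeR adjusted p = 0.554), in a comparison in which 0.38% of 8955 genes passed, so a difference of either direction is within the interval. It was 0.44 on the log2 scale without tumor PMN-MDSC treated replicate 4 and 2.71 without tumor M-MDSC treated replicate 3. In untreated spleen, PMN-MDSC had 15.2 times the mean of M-MDSC (30.04 against 1.98 CPM), and in treated spleen M-MDSC had 2.04 times the mean of PMN-MDSC (421 against 207 CPM, overlapping).

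Bulk tumor held little Acod1 RNA. Untreated tumor PMN-MDSC had 274 times and untreated tumor M-MDSC 33.9 times its mean, and no MDSC library from tumor overlapped with it. The tumor epithelium markers, 6 keratin and adhesion genes, summed to 4937 to 6701 CPM in bulk tumor, against 126 to 765 CPM in untreated tumor PMN-MDSC and 102 to 332 CPM in untreated tumor M-MDSC.

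The gene that flanks Acod1 upstream had lower means in treated than in untreated mice in all 4 MDSC comparisons. Kctd12, an auxiliary subunit of GABA-B receptors, was at 382 ± 30.9 CPM in untreated and 147 ± 25.9 CPM in treated splenic M-MDSC, opposite in direction to Acod1 (in the other groups 560 against 335, 1015 against 594 and 856 against 550 CPM in splenic PMN-MDSC, tumor PMN-MDSC and tumor M-MDSC). Like Acod1, its means were higher in untreated tumor than in untreated spleen in both cell types, and lowest in bulk tumor (25.1 CPM).

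The route of itaconate was examined per length with 15 further genes, those of transport, removal and sensing. In untreated splenic M-MDSC, where Acod1 was at 0.756 FPKM, 12 of the 15 genes were above it, and the highest was Slc25a11, the oxoglutarate carrier of mitochondria, at 21.3 FPKM. After treatment Acod1 was at 161 FPKM and Slc25a11 at 26.3 FPKM, and none of the 15 genes was above Acod1. In tumor PMN-MDSC the highest of the 15 genes, again Slc25a11, was at 14.4 FPKM untreated and 20.1 FPKM treated, against 202 and 407 FPKM of Acod1. In untreated splenic PMN-MDSC Slc25a11 (24.96 FPKM) was the only one of the 15 above Acod1 (11.5 FPKM), and in bulk tumor 12 of them were. By group means, Acod1 had the highest level per length of these genes in all treated groups and in both untreated tumor MDSC groups.

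**Figure D3:**
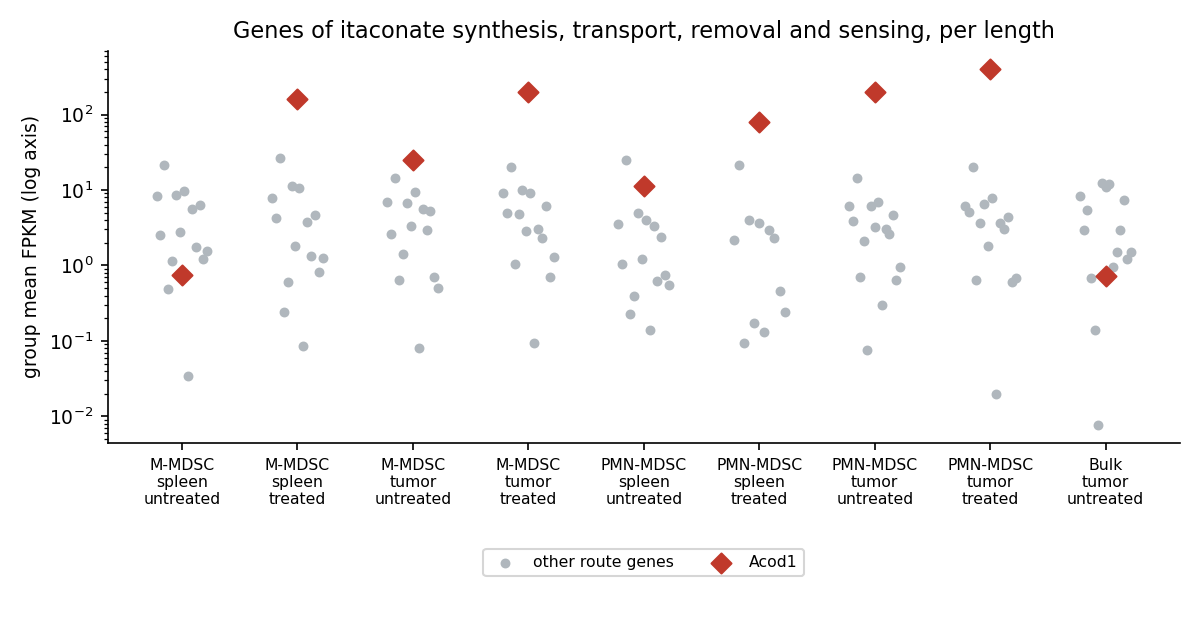
Group mean FPKM (log axis) of Acod1 (red diamonds) and of 15 genes of itaconate transport, removal and sensing (grey points, genes at 0 not drawn) in the 8 MDSC groups and bulk tumor. The highest grey point stays between 14.2 and 26.3 FPKM over the MDSC groups while Acod1 goes from 0.756 to 407 FPKM.

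The response of the other route genes to treatment was counted next. In splenic M-MDSC, 8 of the 15 were expressed highly enough to be tested, and 2 rose and 1 fell, in a comparison in which 10.7% of all genes rose and 8.96% fell (median log2 fold change 0.10, against -0.01 over all genes). Suclg1, a subunit of the succinyl-CoA synthetase that can load itaconate onto CoA, rose from 39.5 to 52.9 CPM (log2 fold change 0.50, edgeR adjusted p = 0.037) and Slc25a10, the dicarboxylate carrier of mitochondria, from 8.80 to 14.5 CPM (0.79, adjusted p = 0.0277). Auh, a hydratase that acts in the breakdown of itaconyl-CoA, fell from 54.4 to 36.6 CPM (-0.49, adjusted p = 0.0273). The changes of these genes were below 2-fold. None of the 5, 9 and 9 genes tested passed in splenic PMN-MDSC, tumor PMN-MDSC and tumor M-MDSC with edgeR (medians 0.09, 0.13 and 0.27), where 6.1%, 2.29% and 1.82% of all genes rose and 5.52%, 1.07% and 1.06% fell. At an unadjusted p under 0.05 these counts were 0, 1 and 3, against 27.4%, 18.2% and 19.2% of all genes, and with DESeq2 they were 0, 0 and 1, against 18.7%, 7.38% and 9.55%.

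In tumor M-MDSC, Auh was at 53.8 CPM untreated and 29.2 CPM treated (adjusted p = 0.0591). Slc13a3, a sodium-coupled carrier that can import itaconate, was at 11.1 and 18.9 CPM in tumor PMN-MDSC and at 7.496 and 25.4 CPM in tumor M-MDSC (adjusted p = 0.395 and 0.127), and was not detected in treated splenic PMN-MDSC. Abcg2, which can export itaconate, had a mean of at most 8.54 CPM in the 8 MDSC groups, and the itaconate receptor gene Oxgr1 was without counts in 7 of them. Slc25a11, Slc25a1, Sucla2, Suclg2 and Mut were tested in at least 1 comparison and did not pass, whereas Sugct, Clybl, Mmaa and Mmab were too low to be tested in any.

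Of 24 genes of the tricarboxylic acid cycle, 23 were tested in splenic M-MDSC, where 2 rose and 1 fell against 10.7% and 8.96% of all genes (median log2 fold change 0.11). Mdh2, malate dehydrogenase, rose from 137 to 206 CPM (0.65, edgeR adjusted p = 0.00309), beside Suclg1 above, and Fh1, fumarase, fell from 44.1 to 25.9 CPM (-0.69, adjusted p = 0.0199). In the other 3 comparisons 18, 23 and 23 genes were tested and none passed with edgeR (6.1%, 2.29% and 1.82% of all genes rose and 5.52%, 1.07% and 1.06% fell); at an unadjusted p under 0.05 the counts were 3, 3 and 2 (27.4%, 18.2% and 19.2% of all genes), and with DESeq2 2, 0 and 0 (18.7%, 7.38% and 9.55%). The closest were Sdhb, the iron-sulfur subunit of succinate dehydrogenase, in both PMN-MDSC comparisons (33.2 to 46.8 CPM in spleen, adjusted p = 0.057; 43.4 to 67.7 CPM in tumor, adjusted p = 0.185) and Fh1 in tumor M-MDSC (38.6 to 24.7 CPM, adjusted p = 0.149). Mdh1, the cytosolic malate dehydrogenase, was at 22.4 and 10.02 CPM in splenic PMN-MDSC (adjusted p = 0.0785).

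Genes of the Nrf2 response, which itaconate is known to engage through Keap1, were counted over 20 genes. In splenic M-MDSC 8 of 18 tested rose and 1 fell (median 0.72), against 10.7% and 8.96% of all genes. Txn1, thioredoxin, rose from 39.2 to 91.2 CPM (1.29, edgeR adjusted p = 1.93e-04), Fth1, the ferritin heavy chain, from 640 to 1449 CPM (1.25, adjusted p = 9.93e-04) and Sqstm1, the adaptor p62, from 133 to 215 CPM (0.77, adjusted p = 0.00281). In splenic PMN-MDSC, where Acod1 also rose, 2 of 17 rose and 1 fell (median 0.02), against 6.1% and 5.52% of all genes: Keap1 (20.2 to 35.7 CPM, adjusted p = 0.0232) and G6pdx (354 to 590 CPM, adjusted p = 0.038) rose, and the catalase gene Cat fell (28.4 to 6.97 CPM, adjusted p = 0.0371). In tumor PMN-MDSC Txn1 rose (41.04 to 86.6 CPM, adjusted p = 0.0261) and in tumor M-MDSC Fth1 rose (1443 to 3354 CPM, adjusted p = 0.0408), each the only one of 18 tested, where 2.29% and 1.82% of all genes rose. Hmox1, heme oxygenase 1, did not pass in either tumor group (97.3 and 192 CPM in PMN-MDSC, adjusted p = 0.0635; 86.5 and 191 CPM in M-MDSC, adjusted p = 0.0774), nor did the biliverdin reductase gene Blvrb in tumor M-MDSC (13.3 and 35.5 CPM, adjusted p = 0.0531).

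Sensors, kinases, interferon receptors and transcription factors that are known to induce Acod1 made up a list of 32 genes. With edgeR, 6 of 30 tested rose and 1 fell in splenic PMN-MDSC, 5 of 32 rose and 0 fell in tumor PMN-MDSC, 3 of 32 rose and 1 fell in tumor M-MDSC, and 9 of 31 rose and 1 fell in splenic M-MDSC (medians 0.28, 0.16, -0.16 and 0.21). Of all genes, 6.1%, 2.29%, 1.82% and 10.7% rose and 5.52%, 1.07%, 1.06% and 8.96% fell in the same order. Irf7 rose in all 4: from 224 to 1231 CPM (edgeR adjusted p = 0.0028), from 52.6 to 797 CPM (9.6e-05), from 112 to 967 CPM (0.00216) and from 203 to 1495 CPM (6.97e-05) in the order just given. Ddx58, the RNA sensor RIG-I, also rose in all 4, from 183 to 468 CPM, from 81.7 to 249 CPM, from 88.6 to 269 CPM and from 131 to 492 CPM (edgeR adjusted p = 0.00651, 0.00149, 0.0169 and 5.95e-05). Ikbke, a kinase that activates interferon regulatory factors, rose from 20.9 to 116 CPM in splenic PMN-MDSC and from 118 to 362 CPM in splenic M-MDSC. Stat2, which carries the type I interferon signal, rose from 78.0 to 410 CPM in splenic PMN-MDSC, from 73.7 to 200 CPM in tumor PMN-MDSC and from 164 to 433 CPM in splenic M-MDSC (adjusted p = 0.00651, 0.00724 and 0.00218). Tlr3, a receptor of double-stranded RNA, rose from 3.82 to 29.6 CPM in tumor M-MDSC (adjusted p = 0.00848).

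Acod1 and Irf7 did not order the groups alike. Untreated tumor PMN-MDSC had the lowest Irf7 levels of the MDSC groups, 37.9 to 70.7 CPM, at Acod1 levels of 274 to 697 CPM. Untreated splenic M-MDSC had 173 to 230 CPM of Irf7 at 1.58 to 2.79 CPM of Acod1. In treated mice Irf7 was at 517 to 2098 CPM in every MDSC library, above all untreated ones.

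**Figure D4:**
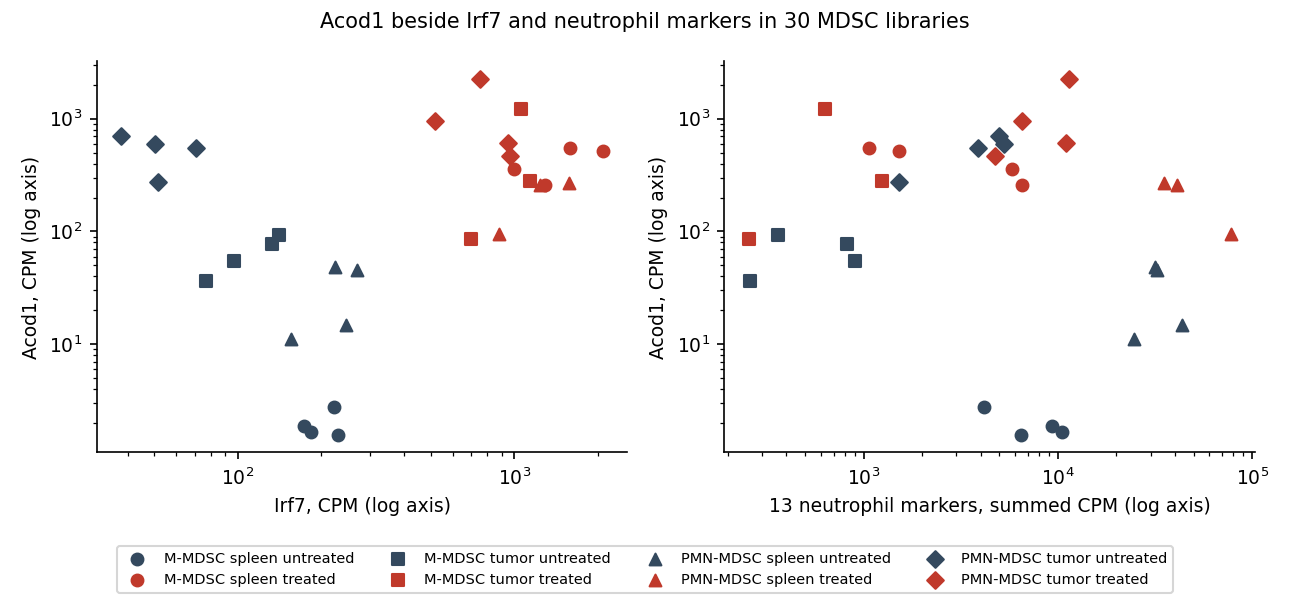
Acod1 in CPM against Irf7 in CPM (left) and against the summed CPM of 13 neutrophil markers (right) in 30 MDSC libraries, all axes logarithmic, with symbols for cell type and compartment and red for treated mice. The 4 untreated tumor PMN-MDSC libraries combine 37.9 to 70.7 CPM of Irf7 with 274 to 697 CPM of Acod1, and the treated splenic PMN-MDSC library with the highest neutrophil sum, 77543 CPM, has the lowest Acod1 of its group.

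Genes of activated macrophages made up a list of 40. A gene was tested if it averaged 25 counts over both groups. Members low in untreated mice, such as Ccl5 in spleen, could thus enter through the treated group alone. Untested members are not in the counts, so this filter can raise the share of tested members that rose. The same filter applied to the other lists and to all genes. In splenic M-MDSC 17 of 25 tested rose and 1 fell (median 1.76), against 10.7% and 8.96% of all genes, with Cd38, an NAD glycohydrolase, from 8.59 to 97.5 CPM, Fpr2, a formyl peptide receptor, from 15.5 to 144 CPM and the chemokine Ccl5 from 6.23 to 340 CPM (edgeR adjusted p = 2.47e-05, 2.66e-05 and 4.06e-05). In splenic PMN-MDSC 7 of 23 rose and 2 fell (median 0.53), against 6.1% and 5.52% of all genes: Fpr2 rose from 133 to 416 CPM and Cxcl10 from 3.01 to 33.4 CPM, and the repressor Atf3 fell from 36.7 to 3.95 CPM (adjusted p = 0.00391, 0.005 and 0.00756). In tumor M-MDSC 8 of 37 rose and 2 fell (median 0.09), against 1.82% and 1.06% of all genes, with Fpr2 from 10.5 to 93.5 CPM and Ccl5 from 13.9 to 758 CPM, while Il1b fell from 4919 to 1180 CPM (adjusted p = 0.00325, 0.0129 and 0.0111). In tumor PMN-MDSC 3 of 35 rose and 3 fell (median 0.26), against 2.29% and 1.07% of all genes, and those that rose were Ccl5 (18.3 to 532 CPM), the scavenger receptor Marco (9.95 to 40.0 CPM) and Saa3 (31.4 to 279 CPM; adjusted p = 1.37e-04, 0.0146 and 0.0298).

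Finally, the genes with profiles closest to that of Acod1 were taken from 8532 genes over the 30 MDSC libraries, by the root mean square difference of log2(CPM + 1) values centred per gene, as a description with no test. The 10 closest were Ccnd2 (1.53), 4930430E12Rik (1.68), Clec4e (1.71), H2-Q6 (1.71), Saa3 (1.73), Rab20 (1.73), Il1rn (1.75), H2-Q7 (1.77), Ralgds (1.80) and Cd38 (1.81), against a median of 2.86 over all genes and an SD of Acod1 itself of 2.76. The closest profile, that of Ccnd2, thus still departed from Acod1 by 1.53 on the log2 scale per library, and in bulk tumor, which this measure did not use, Ccnd2 had its highest mean (472 CPM) and Acod1 its lowest (1.93 CPM). By Pearson correlation over the same libraries, only 3 of the 10 closest genes were shared (Ccnd2, Rab20 and Il1rn), and the immune checkpoint ligand gene Cd274, named here after its value was seen, came first (r = 0.91). The libraries share groups, so these measures mostly describe group means.

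All 10 genes had higher means in treated than in untreated splenic M-MDSC. This is largely set by their selection, since Acod1 differed most with treatment in these same libraries. Ccnd2, cyclin D2, was at 7.22 and 241 CPM in untreated and treated splenic M-MDSC, and Clec4e, the lectin receptor Mincle, at 41.7 and 280 CPM. In tumor PMN-MDSC Ccnd2 was at 159 and 170 CPM and Clec4e at 905 and 1004 CPM, both high without treatment like Acod1. In tumor M-MDSC Clec4e was at 837 CPM untreated and 539 CPM treated, against the direction of the Acod1 means. Il1rn, the interleukin 1 receptor antagonist, was at 86.0 and 576 CPM in splenic M-MDSC but at 404 and 394 CPM in splenic PMN-MDSC.

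Saa3, a serum amyloid A protein, and the nonclassical MHC class I genes H2-Q6 and H2-Q7 had means of 4.05 to 89.3 CPM in the 4 untreated MDSC groups and 59.8 to 434 CPM in the 4 treated ones, each gene higher in treated mice in every pair, whereas Acod1 was already at 529 CPM in untreated tumor PMN-MDSC. H2-Q6 and H2-Q7 are near-identical paralogs, so that their separate values are uncertain. Rab20, a small GTPase, was at 4.64 and 40.9 CPM in splenic M-MDSC and at 64.8 and 78.5 CPM in tumor PMN-MDSC. Promoters of 8 of the 10 genes were in the RefSeq table, and all 8 held GAAA, which was present in 83.6% of all windows. A match in any promoter of a gene was counted, with 3 promoters for Il1rn and 2 for Ralgds. GAAANNGAAA was in that of Saa3, the NF-kB consensus in those of H2-Q6 and H2-Q7, TTGCNNAA in those of Clec4e, Saa3 and Ralgds, and TGANTCA in that of Il1rn, whereas GGAANTTCC, TTCNNNGAA, TATAAA and AGGAAGT were in none of them. The last 35 bases before each RefSeq start were not searched here either, and the shares of all windows with each motif are given above.

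**Figure D5:**
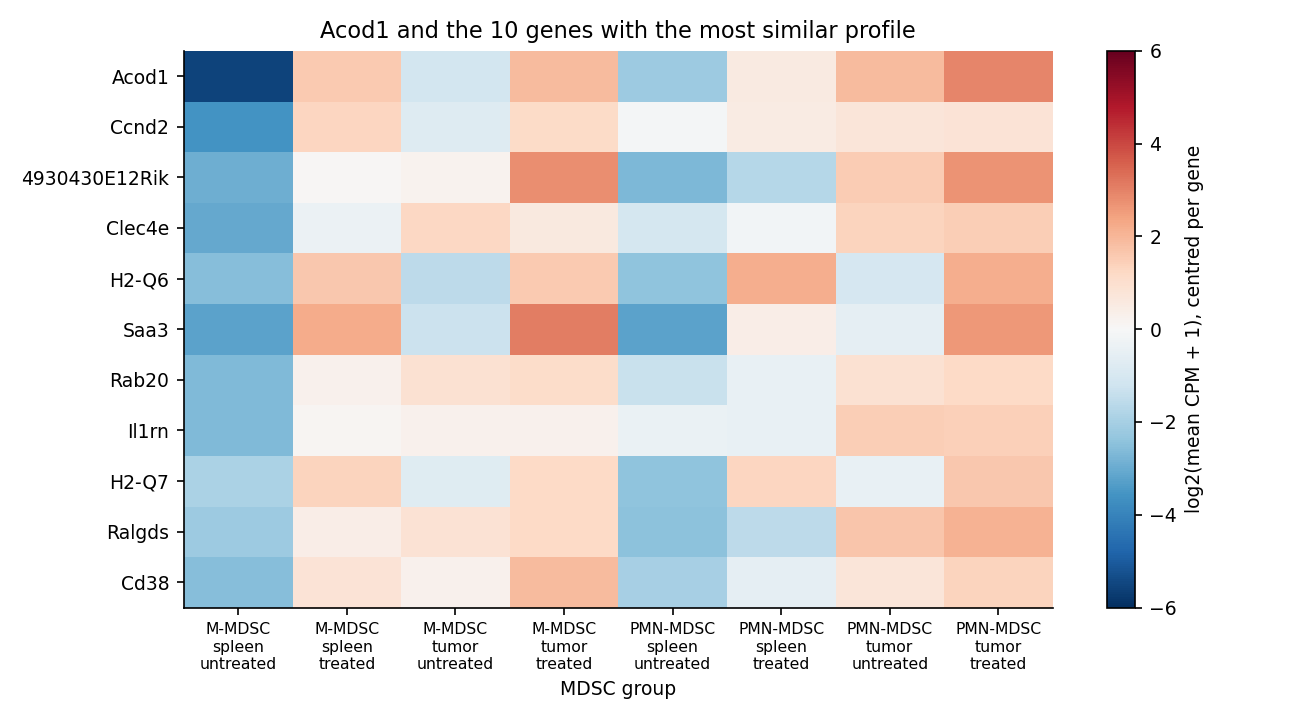
Group means as log2(mean CPM + 1), centred per gene, of Acod1 and the 10 genes with the closest profiles in the 8 MDSC groups. Acod1 and all 10 genes are below their own average in untreated splenic M-MDSC, and Acod1 has the lowest value there of the genes shown. The choice of Acod1 and of genes like it largely sets this.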

How the data were processed

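Acod1 was followed in 34 of 35 libraries of sorted MDSC and bulk tumor; 1 library with 10 counts was left out. The deposited values are unnormalized fragment counts for each gene, which the authors made with BWA as internal aligner, GRCm38 and strand-specific featureCounts (Subread 1.4.6-p3 per the labels) on Gencode annotation. Each column name states cell type, organ and treatment, which gave the group, and replicates were numbered in column order as names only. Gene positions, symbols and exon lengths came from GENCODE on GRCm38 for 53274 of 53379 identifiers.

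CPM used the library total, and FPKM the summed exon length. Fold changes and two-sided tests used edgeR 4.0.16 (R 4.3.3; TMM, robust quasi-likelihood F-test) on the libraries of the groups compared, for genes averaging 25 counts or more, with Benjamini-Hochberg adjustment over all genes tested and a threshold of 0.05. The study's methods used DESeq2, which is an alternative here (1.42.0), as are RLE and upper-quartile scaling, no filter, no robust estimates, a fit over all 8 MDSC groups, a threshold of 0.001 with at least 2-fold, and each library left out. The fits were tested on simulated data.

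The gene, the lists and the tests were chosen with earlier results of these data known. Named genes were Acod1, the 10 genes most like it, its upstream neighbour, the route of itaconate, markers, and up to 3 members of each other list and comparison with the smallest adjusted p. Some items, among them members of these lists, are not reported here, and the list counts leave them out.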

Additional observations from a re-analysis of the deposited data

How the results depend on the processing

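No Acod1 result changed direction. Under the alternatives, 166 Acod1 values kept their side of the threshold or stayed within the spread, 7 lost and 3 gained a call, and 1 moved, and all 9 group levels stayed within the spread when mitochondrial and ribosomal RNA genes were left out of the library total. Treatment in splenic PMN-MDSC (log2 fold change 3.08, 2.76 to 3.44 with single libraries left out) and treated tumor against treated splenic PMN-MDSC (1.98, 1.27 to 2.30) were not called with edgeR at an adjusted p under 0.001. Treatment in tumor M-MDSC (2.91, 1.38 to 3.42) was called by DESeq2 (2.93) and by 1 fit over the 8 MDSC groups (2.90). That fit includes the splenic M-MDSC libraries that chose the gene, and the cause of the difference between fits was not tested. Only 3 of the 10 genes most like Acod1 were also among the first 10 by Pearson correlation, against 8 from group means and 7 with a pseudocount of 0.5.

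Counts of list members depended on the tool. Summed over 5 lists and 4 comparisons, with genes in more than 1 list counted in each, 74 rose and 15 fell with edgeR, 73 and 15 with RLE factors, 99 and 33 with DESeq2, 101 and 36 without the filter, and 13 and 0 at the stricter threshold, where 25 of the 40 counts moved by over 1.5 times. Of all genes, summed alike, 5.27% rose and 4.18% fell with edgeR, 5.34% and 4.07% with RLE factors, 8.08% and 6.61% with DESeq2 and 2.74% and 2.5% without the filter, and 0.739% passed the stricter threshold in either direction. In splenic PMN-MDSC and tumor M-MDSC no list member passed the stricter threshold, nor did more than 3 of 7261 and 1 of 8360 genes (0.0413% and 0.012%). With single libraries left out, 5 to 9, 3 to 5, 2 to 5 and 6 to 10 of the Acod1 inducers rose in splenic PMN-MDSC, tumor PMN-MDSC, tumor M-MDSC and splenic M-MDSC, against 2.31% to 6.84%, 1.06% to 2.27%, 0.281% to 3.52% and 7.29% to 11.6% of all genes.

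No paired analysis was possible from the column names alone, because the columns of the count table carry a running number and no mouse number. A match to mice would rest on column order and was not made. Its effect on the comparisons between organs or cell types was not tested. Groups of 3 or 4 libraries limit the precision, most in treated tumor M-MDSC, and 3 to 8 Acod1 counts per library limit the base of the splenic M-MDSC fold.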
